A study of Homo sapiens with 6 samples.

Results

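Acid handling and monocarboxylate export were followed through 9 genes in PLC/PRF/5 hepatocellular carcinoma (HCC) cells with and without knockdown of MTR4, an RNA helicase of the nuclear RNA surveillance machinery encoded by MTREX. The list holds the carbonic anhydrases CA9, CA12 and CA2, the monocarboxylate transporters SLC16A1, SLC16A3 and SLC16A5, the transporter chaperone BSG, and the sodium-bicarbonate cotransporters SLC4A7 and SLC4A4. These 9 of the 60675 counted genes were chosen because CA9, SLC16A3 and SLC16A5 were known to be lower in MTR4 KD, so their differences between control and MTR4 KD are given as a description, with no p-value for any of them. All 9 were among the 18075 genes with enough reads to be tested.

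PLC/PRF/5 is an established human HCC line, grown here in DMEM with 10% fetal bovine serum. The labels give 3 libraries as control and 3 as MTR4 KD, with total RNA as the material, and the study describes cells before and after an inducible knockdown of MTR4. Its shRNA against MTR4 came from lentivirus, in the pLKO.1 vector or, for knockdown induced by doxycycline, in tet-pLKO together with M2rtTA, and the transduced cells were selected with puromycin. No library of doxycycline-treated cells with a scramble shRNA was analysed here, so an effect of doxycycline or of the vector cannot be told apart from that of the knockdown. For the mRNA of glycolytic genes, the study reported no effect of doxycycline in cells with an inducible scramble shRNA. The labels do not say whether replicates came from separate cultures, and p-values therefore measure only the spread between these libraries, which may be technical.

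Cells that rely on glycolysis release lactate together with protons. Monocarboxylate transporters of the SLC16 family carry both across the plasma membrane, with basigin (BSG) as the chaperone that brings SLC16A1 and SLC16A3 to the surface. Carbonic anhydrases interconvert carbon dioxide and bicarbonate, CA9 and CA12 with their catalytic site outside the cell and CA2 in the cytosol, and SLC4 cotransporters bring bicarbonate into the cell, where it buffers acid. CA9 and SLC16A3 are textbook targets of hypoxia-inducible factors, which bind DNA at a short core sequence.

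The libraries held 60686786 to 72708682 reads on genes, and every pair of libraries in a group differed beyond sampling noise. MTREX itself was at 72.2, 87.4 and 74.4 CPM (counts divided by the scaled library total) in control replicates 1 to 3 and at 44.6, 48.8 and 44.1 CPM in MTR4 KD replicates 1 to 3, a log2 difference of −0.77 (SE 0.0897; edgeR quasi-likelihood test, adjusted p = 0.00641). The share of reads with a non-unique alignment was 34.7% to 37.5% in MTR4 KD replicate 3 and the first and the third control replicate, and 14.8% to 18.2% in the remaining libraries, which are control replicate 2 and MTR4 KD replicates 1 and 2. These sets of libraries are called here the class with more and the class with fewer non-unique reads, and each class holds both conditions. With condition in the same fit, 31.5% of the tested genes differed between the classes at an adjusted p under 0.05, so within-class values stand beside the results. All 10 hepatocyte and HCC markers were above 1 CPM in every library, with summed levels of 24169 to 25629 CPM in control and 24270 to 26084 CPM in MTR4 KD. Within this sum, in 5 of the 10 every MTR4 KD library was above every control library, among them ALB (740 to 761 CPM in control, 869 to 953 CPM in MTR4 KD), APOA1 (501 to 546 and 706 to 781 CPM) and TTR (14.7 to 16.1 and 24.9 to 31.8 CPM), and in 1, AFP (41.7 to 44.3 and 37.8 to 40.7 CPM), every one was below. Over all tested genes, every MTR4 KD library was below every control library in 12.6%. The share with every one above was not computed, so nothing is read from these marker counts. The part of the markers in the results was not tested. The summed levels of 6 fibroblast markers (7.27 to 12.6 CPM in control, 5.72 to 10.3 CPM in MTR4 KD), 4 matched endothelial markers (0.0995 to 1.70 CPM and 0.244 to 0.571 CPM) and 6 leukocyte markers (31.2 to 36.5 CPM and 26.9 to 29.4 CPM, most of it LYZ) were far lower. In bulk RNA, fewer cells of one kind and less RNA per cell cannot be told apart.

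The DNA at the start of 6 of the 9 genes (16 windows) was available from RefSeq on GRCh38.p14, each window running from 250 bases before to 50 bases after a transcription start. The windows of CA9, of CA12, and of SLC16A3 and BSG at the start that holds ACGTG are printed 5′ to 3′ on the gene's strand. ACGTG is a form of the core of the hypoxia response element. These genes were printed because they differ in how far they moved and in whether they hold ACGTG. Capitals mark every ACGTG on either strand, which reads CACGT on the opposite strand. The windows are chr9:35673678-35673977 (plus strand), chr15:63381797-63382096 (minus strand), chr17:82228792-82229091 (plus strand) and chr19:572346-572645 (plus strand), in the order of the lines.
CA9: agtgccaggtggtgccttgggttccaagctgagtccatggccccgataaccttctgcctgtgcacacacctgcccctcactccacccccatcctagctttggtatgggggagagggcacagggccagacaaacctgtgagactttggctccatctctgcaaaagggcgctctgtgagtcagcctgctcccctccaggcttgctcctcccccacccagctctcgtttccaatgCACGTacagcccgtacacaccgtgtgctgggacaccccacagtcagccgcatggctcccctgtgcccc
CA12: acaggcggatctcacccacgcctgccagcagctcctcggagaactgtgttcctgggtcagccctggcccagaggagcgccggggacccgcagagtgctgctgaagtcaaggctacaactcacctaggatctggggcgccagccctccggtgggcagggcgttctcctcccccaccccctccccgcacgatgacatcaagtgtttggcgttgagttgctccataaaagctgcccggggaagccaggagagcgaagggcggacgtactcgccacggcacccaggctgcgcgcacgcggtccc
SLC16A3: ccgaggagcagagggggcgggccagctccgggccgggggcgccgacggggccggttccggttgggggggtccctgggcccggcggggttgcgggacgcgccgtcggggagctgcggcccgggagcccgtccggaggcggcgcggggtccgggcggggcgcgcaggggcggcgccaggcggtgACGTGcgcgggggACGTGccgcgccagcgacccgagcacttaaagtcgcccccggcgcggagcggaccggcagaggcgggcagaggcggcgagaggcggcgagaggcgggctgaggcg
BSG: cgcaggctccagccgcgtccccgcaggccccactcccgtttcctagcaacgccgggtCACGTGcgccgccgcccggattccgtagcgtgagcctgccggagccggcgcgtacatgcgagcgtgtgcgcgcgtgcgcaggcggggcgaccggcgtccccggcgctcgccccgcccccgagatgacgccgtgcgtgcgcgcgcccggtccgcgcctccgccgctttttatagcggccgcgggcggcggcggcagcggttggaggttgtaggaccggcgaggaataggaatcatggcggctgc

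CA9 held the motif once, in its CACGT reading, from 18 to 14 bases before the start. SLC16A3 held ACGTG at 2 places in this window, from −68 to −64 and from −55 to −51, and its other 4 windows held none. The BSG window held CACGTG, from −193 to −188, in which both readings overlap, and the other BSG window held none. CA12 held no ACGTG, nor did either SLC4A7 window or any of the 5 SLC4A4 windows. Thus 3 of 16 windows held ACGTG, against 21.4% of all 35116 RefSeq windows of this length. The other form of the core, GCGTG, or CACGC on the opposite strand, was present in 36.5% of all windows. It was found 2 times in the printed CA12 window and 4 times in the printed BSG window, and not in the printed CA9 and SLC16A3 windows. Over all 16 windows it was present in 7, which also include 2 other SLC16A3 windows, 1 SLC4A7 window and 2 SLC4A4 windows. A match of letters is a description of the sequence and not a measurement of binding.

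CA9, the extracellular carbonic anhydrase, had the largest difference among the 9 genes. Its level was 5.11, 4.23 and 5.59 CPM in control replicates 1 to 3 and 0.522, 0.614 and 1.06 CPM in MTR4 KD replicates 1 to 3. Every MTR4 KD library was below every control library, and the mean in MTR4 KD was 14.7% of that in control. The counts behind these levels were 306 to 337 reads in control and 32 to 65 reads in MTR4 KD. The log2 difference was −2.76 (SE 0.275). It was −2.30 within the class with more non-unique reads and −2.83 within the class with fewer. MTR4 KD replicate 3, the only MTR4 KD library of the class with more non-unique reads, was the highest of its group, and control replicate 2, the only control library of the other class, was the lowest of its group.

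CA12, the other extracellular enzyme, was scarcer. It was at 2.11, 2.28 and 2.32 CPM in control and at 1.03, 0.868 and 0.620 CPM in MTR4 KD, from 130 to 165 and from 38 to 63 reads. The groups did not overlap, and the log2 difference was −1.41 (SE 0.218), with −1.78 and −1.24 within the classes with more and fewer non-unique reads. Here MTR4 KD replicate 3 was the lowest library, in contrast to CA9.

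CA2, the cytosolic enzyme, was the most abundant of the 3 carbonic anhydrases. It stood at 60.9, 59.6 and 60.2 CPM in control and at 47.4, 44.7 and 44.7 CPM in MTR4 KD. The control libraries varied by 1.08% (coefficient of variation), and all 3 MTR4 KD libraries lay below them. The log2 difference was −0.40 (SE 0.0554), far smaller than for the extracellular enzymes, and the within-class values were −0.44 and −0.37.

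SLC16A1, which encodes monocarboxylate transporter MCT1, was the gene of the list whose groups overlapped. Its level was 169, 182 and 164 CPM in control and 174, 175 and 159 CPM in MTR4 KD. The log2 difference was −0.02 (SE 0.0691), and −0.06 within each class, and it turned to 0.02 without control replicate 2 and 0.03 without MTR4 KD replicate 3. The lowest library of either group belonged to the class with more non-unique reads.

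SLC16A3 encodes MCT4, the lactate exporter of glycolytic cells. It was at 5.04, 4.53 and 5.95 CPM in control and at 1.92, 1.71 and 2.32 CPM in MTR4 KD, from 311 to 359 and from 114 to 142 reads. The groups were apart, with 38.3% of the control mean left in MTR4 KD. The log2 difference was −1.38 (SE 0.167), with −1.23 and −1.31 within the classes. In both groups the library order by class was that of CA9.

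SLC16A5, a further member of the monocarboxylate transporter family, was at 18.8, 15.9 and 18.9 CPM in control and at 9.34, 8.22 and 8.91 CPM in MTR4 KD. No MTR4 KD library reached the lowest control library. The log2 difference of −1.02 (SE 0.101) lay just past a fold change of 2, and the fit with library class gave −0.97 (SE 0.0818), just short of it. The next gene by size was SLC4A7, at −0.62.

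BSG was by far the most abundant gene of the list. It was at 1144, 1020 and 1282 CPM in control and at 852, 866 and 979 CPM in MTR4 KD. The highest MTR4 KD library, replicate 3, was close below the lowest control library, replicate 2, and these come from different classes. The log2 difference was −0.35 (SE 0.0995), with −0.31 and −0.25 within the classes.

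The sodium-bicarbonate cotransporters stood lower by similar amounts. SLC4A7 (NBCn1, the electroneutral form) was at 58.7, 58.4 and 54.2 CPM in control and at 38.2, 35.8 and 37.2 CPM in MTR4 KD, a log2 difference of −0.62 (SE 0.0622). SLC4A4 (NBCe1, the electrogenic form) was at 57.2, 58.8 and 60.4 CPM in control and at 40.1, 40.2 and 37.5 CPM in MTR4 KD, a log2 difference of −0.58 (SE 0.0597). In both genes the groups were well apart, and the within-class values were −0.60 and −0.66 for SLC4A7 and −0.65 and −0.55 for SLC4A4.

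**Figure D1:**
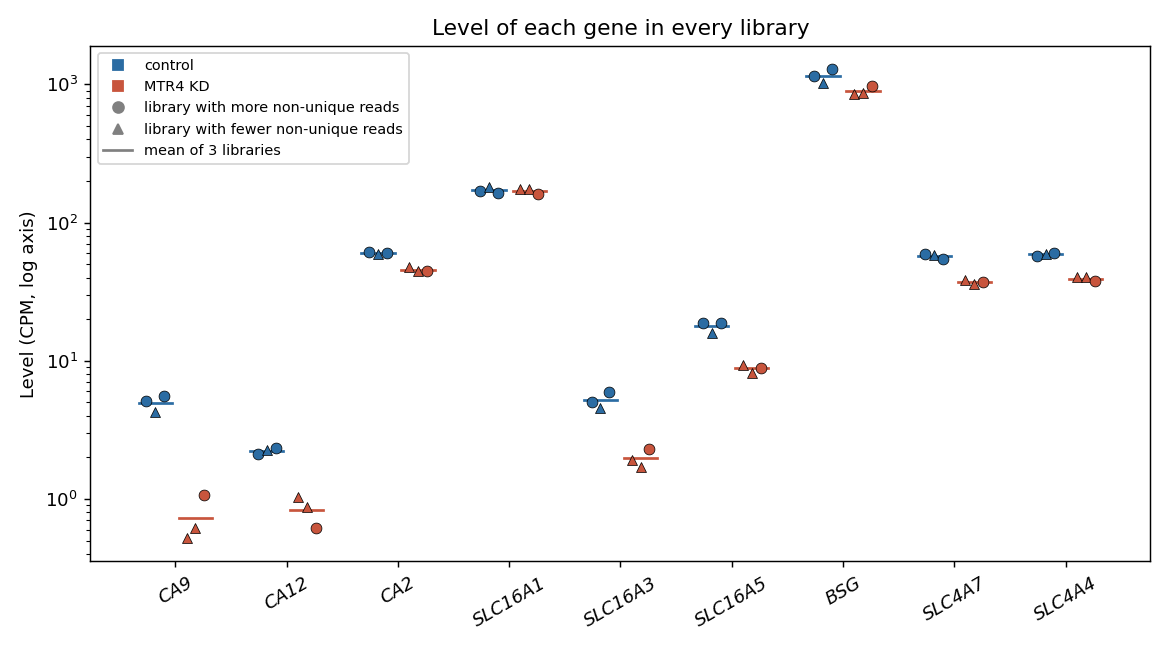
Level of the 9 genes in CPM (log axis) in each of 6 libraries, control in blue and MTR4 KD in red, with circles for libraries with more and triangles for libraries with fewer non-unique reads and a line at each mean. CA9 stands at 4.23 to 5.59 CPM in control and 0.522 to 1.06 CPM in MTR4 KD, whereas the 6 values of SLC16A1 overlap between 159 and 182 CPM.

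Across the list, the mean of all 9 genes was lower in MTR4 KD, and within both library classes as well. In 8 of 9 genes every MTR4 KD library lay below every control library, which held for 12.6% of all tested genes. In the edgeR fit over all genes, counted here only beside its background, 4 of the 9 (CA9, CA12, SLC16A3 and SLC16A5) were lower by more than 2-fold at an adjusted p under 0.05, against 0.509% of all tested genes, and 7 of the 9 were lower at that adjusted p whatever the fold, against 2.12%. The count of 4 was 3 without MTR4 KD replicate 1, 1 without MTR4 KD replicate 2, and 2 without control replicate 1 or control replicate 3. The count of 7 was 4 without MTR4 KD replicate 2 and 5 without MTR4 KD replicate 1, control replicate 1 or control replicate 3. With library class in the fit, 8 of the 9 were lower at that adjusted p, against 10.8%. Since the genes were chosen on this contrast, nothing is read from these counts. The median log2 difference was −0.62 over the 9 genes and 0.01 over all tested genes.

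**Figure D2:**
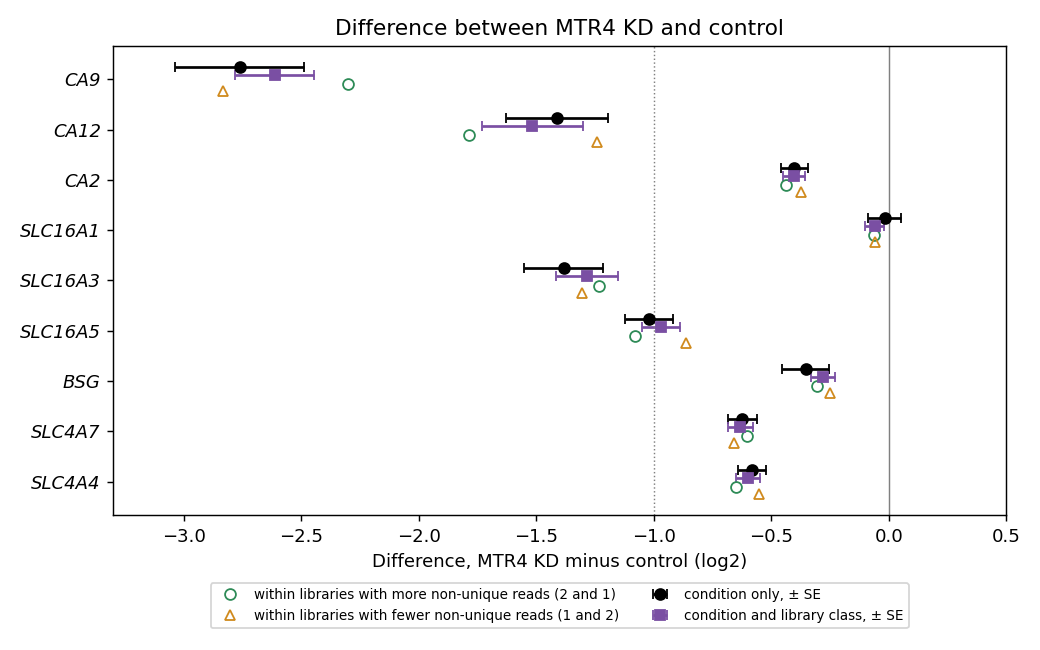
Log2 difference between MTR4 KD and control for each gene, with black circles for the fit with condition only and purple squares for the fit with condition and library class (bars, SE). Open symbols are the differences within each library class (2 control and 1 MTR4 KD library, or 1 and 2), and the dotted line marks a 2-fold lower level. CA9 is farthest to the left at −2.76, and the values of SLC16A1 lie nearest to 0, at −0.02 with condition only and −0.06 with library class.

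The library class was not used to choose the genes, so its own term could be tested for each. At an adjusted p under 0.05, 3 of the 9 genes differed between the classes, near the 31.5% of all tested genes. CA9 was higher in the class with more non-unique reads by 0.53 on the log2 scale (SE 0.166; edgeR, adjusted p = 0.0264), and it stood higher there in both groups. BSG was higher in that class by 0.22 (SE 0.0503; edgeR, adjusted p = 0.00458). SLC16A1 was lower in that class (log2 difference −0.13, SE 0.0393; edgeR, adjusted p = 0.0229). For the other 6 genes the adjusted p ranged from 0.0935 for SLC16A3 to 0.922 for CA2.

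Dividing by the length of the canonical transcript puts the genes on a common scale. In control the level per length was 590.2 ± 67.5 CPM per kb for BSG, 45.7 ± 2.48 for SLC16A1, 38.6 ± 0.418 for CA2, 9.22 ± 0.871 for SLC16A5, 7.62 ± 0.211 for SLC4A4, 7.07 ± 0.312 for SLC4A7, 3.22 ± 0.447 for CA9, 1.99 ± 0.277 for SLC16A3 and 0.367 ± 0.0185 for CA12 (SD, n = 3). BSG thus exceeded the transporter SLC16A1 by 12.9-fold on this scale. Among all tested genes with a length, BSG was at the 99.5th percentile of control levels per length and CA12 at the 17.4th. No neighbours in this order overlapped in their control libraries, although SLC4A4 and SLC4A7 were only 1.08-fold apart. In MTR4 KD the order changed in its lower part. SLC16A5 (4.55 ± 0.291 CPM per kb) came to lie below SLC4A4 (5.09 ± 0.200) and level with SLC4A7 (4.59 ± 0.146), from which it did not differ beyond the spread. CA9 (0.473 ± 0.186) came to lie below SLC16A3 (0.763 ± 0.119), again with overlapping libraries. These changes of order depend on the length used. By coding length, the control mean of SLC16A5 was already below SLC4A4 and SLC4A7, and that of CA9 already below SLC16A3. By the longest transcript, the mean of CA9 stayed above SLC16A3 in MTR4 KD.

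On the same scale the chosen genes of a family could be set against each other. Of the summed level per length of the 3 SLC16 genes, SLC16A1 took 78.4% to 83.0% in the control libraries and 88.6% to 90.5% in the MTR4 KD libraries. SLC16A3 took 2.98% to 4.11% and 1.27% to 1.86%, and SLC16A5 took 14.1% to 17.5% and 8.22% to 9.57%. Of the summed level per length of the 3 chosen carbonic anhydrases, CA2 took 90.6% to 92.5% in control and 97.3% to 98.4% in MTR4 KD, and CA9 took 6.63% to 8.49% and 1.09% to 2.33%. Other expressed members of these families were left out of the sums. None of these ranges overlapped between control and MTR4 KD. Since CA9, SLC16A3 and SLC16A5 were chosen because they were lower, such a shift in shares follows from that choice. Nothing is read from it.

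Several of the genes share their position with other genes, and whether reads were counted by strand was not given in the sources used here. SLC16A3 (chr17:82217934-82240086, GRCh38) is overlapped in RefSeq by CSNK1D, a casein kinase, which was at 119 ± 5.55 CPM in control and 143 ± 7.26 CPM in MTR4 KD (SD, n = 3; log2 difference 0.26, edgeR, adjusted p = 0.0918). SLC16A5 (chr17:75087385-75110149) is overlapped by ARMC7, at 24.1 ± 5.24 and 20.7 ± 1.52 CPM (log2 difference −0.22, edgeR, adjusted p = 0.531). BSG (chr19:571283-583493) and CA2 are overlapped by the antisense genes BSG-AS1 and CA3-AS1, which were at 1.19 and 0.745 CPM in control. CA9 (chr9:35673928-35681159) has no such neighbour in RefSeq. SLC16A1 (chr1:112911847-112956196) has a named pseudogene, SLC16A1P1, that could take some of its reads.

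By the same counts, 5 genes outside the list followed CA9 most closely over the 6 libraries, out of 12853 tested genes with a mean of at least 100 reads. They were VASH2 (Pearson r = 0.9991 of log2 CPM), ITIH2 (0.9989), CEACAM1 (0.9987), CTSC (0.9982) and LGI4 (0.9981). Their log2 differences between MTR4 KD and control were −0.73, −0.28, −1.14, −0.29 and −1.44, each smaller than that of CA9. These coefficients describe 6 libraries in 2 conditions and were picked as the highest of many.

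Beyond the 9 genes, 9 lists covered acid handling, lactate and pyruvate interconversion and entry, and hypoxia-inducible factors with oxygen sensors. They held 106 other genes, of which 76 were tested. Of these, 2 fell in MTR4 KD at an adjusted p under 0.05 by edgeR's quasi-likelihood test (against 2.12% of all tested genes) and 0 rose (against 1.48%), with 6 higher at an unadjusted p under 0.05. Both shares were near the background. The lists were chosen with earlier results of these data known, so the p-values of LDHA and EGLN3 are given as a description. DESeq2 called 3 lower and 2 higher, and edgeR called 2 higher without control replicate 2 and 1 without MTR4 KD replicate 3. LDHA, the lactate dehydrogenase subunit that makes lactate from pyruvate, was at 1831, 1920 and 1822 CPM in control and at 1250, 1235 and 1147 CPM in MTR4 KD (log2 difference −0.62, SE 0.0619, edgeR, adjusted p = 0.00328). EGLN3, a prolyl hydroxylase that marks hypoxia-inducible factors for decay and is itself their target, was at 6.28, 5.64 and 7.30 CPM in control and at 2.62, 2.05 and 2.28 CPM in MTR4 KD (log2 difference −1.46, SE 0.149, edgeR, adjusted p = 0.00348). Neither gene had overlapping groups, and their within-class values were −0.67 and −0.63 for LDHA and −1.55 and −1.27 for EGLN3. The LDHA window at its first RefSeq start held ACGTG 5 times, with both strands counted and overlapping readings counted apart, and the EGLN3 window held none.

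By role, the lists of carbonic anhydrases, SLC16 transporters, SLC4 bicarbonate transporters and SLC9 sodium-proton exchangers outside the chosen genes had 0 members past the test in either direction, with 4, 9, 5 and 9 genes tested and median log2 differences of −0.17, 0.01, −0.26 and 0.04. The 20 tested subunits of the V-ATPase, the proton pump of endosomes and lysosomes, lay between −0.39 and 0.29 with a median of 0.03, and 0 of them passed. The 7 SLC26 anion exchangers and the 5 proton sensors and channels likewise had 0 genes past the test. In the 7 genes of lactate and pyruvate interconversion and entry, LDHA alone passed, and in the 10 hypoxia-inducible factors and oxygen sensors, EGLN3 alone.

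These counts depended on the library class. With the class in the fit, 9 of the 76 genes fell, against 10.8% of all tested genes, and 9 rose, against 9.43%, both shares near the background. The genes named next were chosen after their values were seen. The 4 V-ATPase subunits ATP6V0A1, ATP6V0D1, ATP6V0E2 and ATP6V1A were among those that rose, ATP6V0A1 by 0.26 on the log2 scale (from 92.3, 93.8 and 89.8 CPM in control to 112, 118 and 107 CPM in MTR4 KD). The groups of ATP6V0D1 and ATP6V0E2 overlapped, and their log2 differences with condition only were 0.08 and 0.09. Of the 20 tested subunits, 4 rose and 0 fell in the fit with library class, against 9.43% and 10.8% of all tested genes. Nothing is read from this count, since the subunits were singled out after their values were seen. MPC2, a subunit of the mitochondrial pyruvate carrier, rose by 0.25 in the same fit. The 3 alpha subunits of hypoxia-inducible factors were among those that fell, with log2 differences of −0.13 (SE 0.0419) for HIF1A, −0.28 (SE 0.0434) for EPAS1 and −1.60 (SE 0.462) for HIF3A, which was under 1 CPM in every library. HIF1A was just under the cut in this fit (edgeR, adjusted p = 0.0474). With condition only, the adjusted p by edgeR was 0.264, 0.0779 and 0.275 in that order, and the groups of HIF3A overlapped. With library class, the sodium-proton exchanger SLC9A2 fell by 0.32 on the log2 scale. SLC4A8 and ARNT2 also fell in this fit, but each stood high in control replicate 2 alone, SLC4A8 at 2.11 CPM against 0.0811 to 0.326 CPM in the other 5 libraries. Control replicate 2 exceeded each of the other 5 libraries more than 5-fold in 36 of the 18075 tested genes. None of the 9 chosen genes was among them, and with so few such genes nothing is read from this.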

How the data were processed

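RNA-seq of PLC/PRF/5 cells gave 3 control and 3 MTR4 KD libraries, grouped by the sample labels. The authors deposited raw counts of reads per Ensembl gene, without normalization. The submitters' processing notes name HISAT2 2.1.0, HTSeq, DESeq2 and GRCh38, and the strand setting of the counting is not given in the sources used here. Lines that name no gene (37.7% to 49.3% of entries per library) were left out of library sizes and tests. GENCODE, in its GRCh37 lift, gave symbols and canonical transcript lengths, and positions and promoters came from RefSeq on GRCh38.

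Counts were analysed in R 4.3.3 with edgeR 4.0.16: filterByExpr with a minimum of 10 counts, TMM scaling, and the quasi-likelihood test over all tested genes with Benjamini-Hochberg adjustment and condition as the only term. Alternatives used limma 3.58.1 and DESeq2 1.42.0. Tables and plots were made in Python 3.11.15 (pandas 2.3.3, matplotlib 3.10.9). Between 60686786 and 72708682 reads on genes set the precision, and counting error is largest for CA9 and CA12. The code was tested on simulated data. A library fell in the class with more non-unique reads at a share over 30%. Alternatives were DESeq2 size factors, unscaled totals, no filter, a filter at 1 CPM, library class as a covariate, the replicate number as a block, DESeq2's Wald test, limma-voom, each library left out in turn, and other gene lengths. Likeness to CA9 used log2(CPM + 0.1).

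The genes and lists were chosen with earlier results of these data known. Named are the 9 genes, MTREX, at most 3 genes per wider list and direction with an adjusted p under 0.05, and the 5 genes most like CA9. Genes named only from the fit with library class, cell type markers and genes that overlap the 9 fall outside this rule, and the first of these and the 4 hepatocyte and HCC markers given singly were chosen after their values were seen.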

Additional observations from a re-analysis of the deposited data

How the results depend on the processing

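The log2 differences of 8 of the 9 genes kept their sign under each of the 14 alternatives, and that of SLC16A1 turned to 0.02 without control replicate 2 and 0.03 without MTR4 KD replicate 3. The number of genes past both thresholds was 150, against 347 with library class as a covariate, 227 with DESeq2's Wald test, 162 with the replicate block, and 73 to 180 with 1 library left out (73, 75, 76 and 73 without control replicate 1, control replicate 3, MTR4 KD replicate 1 and MTR4 KD replicate 2). The number at an adjusted p under 0.05 was 650, against 3649, 1363, 857 and 137 to 803 in that order, with 164, 183, 163 and 137 without the same 4 libraries. Of the wider lists, 0 genes were higher, against 1 when genes needed 1 CPM or more in 3 libraries, 9 with library class, 2 with DESeq2's Wald test, 2 with the replicate block and 0 to 2 with 1 library left out. The 2 lower genes became 9 with library class and 2 to 3 with 1 library left out. The genes that differed between the classes numbered 5694, and 4352 to 5066 with 1 library left out. The 9 chosen genes past both thresholds numbered 4, against 3 with library class and 1 to 4 with 1 library left out: CA9 alone without MTR4 KD replicate 2, CA9 and SLC16A3 without control replicate 1 or 3, and CA9, CA12 and SLC16A5 without MTR4 KD replicate 1. With condition only, 0.509% of all tested genes were lower past both thresholds. Since the 9 genes were chosen on this contrast, nothing is read from their counts. With coding length in place of transcript length, 4 of 9 genes kept their rank in control and 7 in MTR4 KD. The replicate numbers were not taken to pair the libraries, since same-numbered libraries correlated at -0.24, 0.32 and 0.35 in their deviations from the group means. Levels of CA9 and CA12 in MTR4 KD rest on 32 to 65 reads per library. The causes of these changes were not tested.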
